A study of Mus musculus with 15 samples.

Results

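The 7 genes described here encode subunits of the receptors for GABA, the main inhibitory transmitter of the brain, and were taken by name from the 35976 genes of the deposited count table. Gabra2, Gabra3 and Gabra4 (alpha subunits) and Gabrb1 and Gabrb2 (beta subunits) belong to the GABA-A receptor, and Gabbr1 and Gabbr2 to the GABA-B receptor. All 7 were present in the table and passed the filter on low counts in each comparison. Their RNA was measured in sorted nuclei of the ventral tegmental area, a midbrain region with many dopamine neurons, of mice at 3 stages of a cocaine self-administration schedule.

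GABA-A receptors are chloride channels built of 5 subunits, usually alpha, beta and gamma together, and the alpha subunit sets much of the receptor's kinetics and drug sensitivity. GABA-B receptors are G protein-coupled: GABBR1 binds GABA, GABBR2 couples to the G protein, and both are needed at the cell surface. In ventral tegmental dopamine neurons GABA-A receptors carry fast inhibition from local and afferent GABA neurons, and GABA-B receptors act in part through inwardly rectifying potassium channels of the GIRK family.

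All mice were male, heterozygous for Cre at the dopamine transporter gene (DAT-Cre, B6.SJL-Slc6a3tm1.1(cre)Bkmm/J), 8 to 12 weeks old, and all received AAV5-DIO-KASH-HA in the ventral tegmental area 14 days before behaviour began, so that cells with Cre carried an HA tag on the nuclear envelope. Every sample pooled tissue of 2 mice, and nuclei positive for HA are called dopaminergic here and nuclei negative for HA non-dopaminergic. Food-trained mice pressed a lever for food over 7 days and gave dopaminergic (n = 4) and non-dopaminergic libraries (n = 4). Maintenance mice then had intravenous catheters and worked for cocaine in daily sessions of 1 h, at 0.3 mg/kg per infusion for 5 days and 1.0 mg/kg per infusion for 10 days (n = 3, dopaminergic). Abstinence mice had the same schedule followed by 21 days in the home cage (n = 4, dopaminergic). No group took saline in place of cocaine, so cocaine cannot be told apart from the surgery, the added training and the added age. HA marks cells with Cre and virus, whether or not they make dopamine, and a cell that escaped the virus falls among the HA-negative nuclei.

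Total counts ranged from 25813697 to 59046618 per library, with the lowest total in food-trained dopaminergic replicate 3. Markers of dopamine neurons (13 genes) summed to between 5825 and 12592 CPM (counts scaled to a common library size) in the 11 dopaminergic libraries and between 381 and 551 CPM in the non-dopaminergic ones, and 11 of the 13 passed the test as higher in dopaminergic nuclei. Oligodendrocyte markers (10 genes) summed to 1138 to 2806 CPM in dopaminergic and 9847 to 23351 CPM in non-dopaminergic libraries, so neither sort was free of glial RNA. The non-dopaminergic libraries are therefore a mixture of neurons and glia rather than the neurons that their label names. Libraries also differed in how counts followed the GC content of transcripts. The slope of log2 CPM (centred for each gene on its average over the 15 libraries, for 8173 genes) on GC percent was -0.0377, -0.0224 and -0.0377 per percent in the 3 maintenance libraries and -0.0247 in non-dopaminergic replicate 2, against -0.0166 to 0.0205 in the other dopaminergic and 0.021 to 0.0324 in the other non-dopaminergic libraries.

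The 7 genes lie in 4 places on the autosomes and 1 on the X chromosome (GENCODE M21, GRCm38; whole gene spans with exons and introns). Gabra2 (chr5:70957597-71095849, minus strand), Gabra4 (chr5:71569749-71658308, minus) and Gabrb1 (chr5:71658113-72149037, plus) share a cluster with Gabrg1 on chromosome 5. Gabra4 and Gabrb1 are arranged head to head, and their spans overlap by 196 bp that include exon sequence. How the counting used strand is not given in the sources used here, so reads from this overlap cannot be assigned with certainty. Gabrb2 (chr11:42419757-42629028, plus) lies in a cluster with Gabra6, and Gabra3 (chrX:72432681-72656848, minus) between Gabre and Gabrq. The GABA-B genes stand apart from the clusters and from each other, Gabbr1 at chr17:37045966-37075067 (plus) and Gabbr2 at chr4:46662305-46991873 (minus). The chromosome 5 genes have transcripts of low GC content (38.4% for Gabra2, 42.2% for Gabra4, 40.9% for Gabrb1), as do Gabra3 (43.1%) and Gabrb2 (44.0%), while Gabbr1 (53.0%) and Gabbr2 (56.0%) are GC-rich.

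Promoter sequences are shown for 4 of the genes: Gabbr1, the member that passed a test between populations, its partner Gabbr2, Gabrb2, the most abundant GABA-A member, and Gabra3, whose promoter entries hold no CG. They are RefSeq promoters (GRCm38.p6, 250 bases before to 50 after the annotated start, in the direction of the gene). Capitals mark each CG dinucleotide, a motif that reads the same on both strands and cannot overlap itself.
Gabbr1, chr17:37045716-37046015, plus strand: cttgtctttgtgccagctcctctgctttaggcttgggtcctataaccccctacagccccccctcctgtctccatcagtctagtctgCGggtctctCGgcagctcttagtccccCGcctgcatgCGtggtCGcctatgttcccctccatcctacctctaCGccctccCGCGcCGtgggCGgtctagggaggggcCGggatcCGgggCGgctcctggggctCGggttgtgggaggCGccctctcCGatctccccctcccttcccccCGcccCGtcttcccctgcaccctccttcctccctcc
Gabbr2, chr4:46991665-46991964, minus strand: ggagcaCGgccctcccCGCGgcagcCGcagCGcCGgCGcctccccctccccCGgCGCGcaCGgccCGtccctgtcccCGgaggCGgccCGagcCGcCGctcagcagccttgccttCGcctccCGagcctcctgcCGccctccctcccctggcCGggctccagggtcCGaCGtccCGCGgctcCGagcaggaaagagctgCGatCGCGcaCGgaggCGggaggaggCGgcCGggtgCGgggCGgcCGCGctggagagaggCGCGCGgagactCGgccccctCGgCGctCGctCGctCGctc
Gabrb2, chr11:42420190-42420489, plus strand: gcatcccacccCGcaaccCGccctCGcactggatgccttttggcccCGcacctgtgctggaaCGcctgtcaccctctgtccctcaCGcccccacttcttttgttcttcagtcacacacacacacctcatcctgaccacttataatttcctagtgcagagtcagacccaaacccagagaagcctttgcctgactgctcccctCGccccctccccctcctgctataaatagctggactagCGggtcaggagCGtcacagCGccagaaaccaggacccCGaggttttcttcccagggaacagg
Gabra3, chrX:72656870-72657169, minus strand: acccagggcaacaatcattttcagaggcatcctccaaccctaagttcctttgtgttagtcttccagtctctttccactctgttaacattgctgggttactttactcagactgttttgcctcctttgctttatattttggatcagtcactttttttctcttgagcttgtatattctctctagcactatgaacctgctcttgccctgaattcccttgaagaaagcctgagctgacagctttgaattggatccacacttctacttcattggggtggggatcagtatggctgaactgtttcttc

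Among 32851 RefSeq promoters of the same length, 94.6% held at least 1 CG and the median was 7. The Gabbr2 promoter held 46, a number reached by 1.65% of promoters, and the Gabbr1 promoter held 18, reached by 29.7%. The first Gabrb2 entry held 11, and both Gabra3 entries held 0, as did 5.43% of all promoters. Of the others, Gabra2 held 25, Gabra4 held 12, and the entries of Gabrb1 held 25 and 9. The transcripts divide by receptor class in their GC content, but the promoters do not, since that of Gabra2 held more CG than that of Gabbr1.

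Transcript levels of the 7 genes were compared with each other as CPM per kilobase of the longest annotated transcript. In food-trained dopaminergic nuclei Gabbr1 (median 203 CPM per kb) and Gabrb2 (182) led, and their libraries overlapped. Gabra3 (50.9) and Gabra4 (30.2) followed, also overlapping, and all 4 libraries of Gabrb2 lay above all 4 of Gabra3. Gabrb1 (17.8), Gabbr2 (12.3) and Gabra2 (9.31) were lowest, and each overlapped the next. By median RNA per kilobase Gabbr1 thus ranked highest of the 7 and Gabbr2, whose protein pairs with GABBR1, near the lowest. Each overlapped its neighbours in rank.

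The order was similar in the other groups, with Gabrb2 above Gabbr1. Their medians were 368 and 128 CPM per kb at maintenance, where the libraries did not overlap, 238 and 165 at abstinence, where they did, and 147 and 94.0 in non-dopaminergic nuclei, where they did not. Gabra3 held the third place and Gabra4 the fourth in each group, overlapping in each, and Gabrb1 the fifth. Gabra2 and Gabbr2 shared the last places, between 8.09 and 16.4 CPM per kb. The order depended in part on the length used. Per kilobase of the median coding transcript, a setting chosen after seeing the data, Gabbr1 led Gabrb2 at abstinence (543 and 344) and in non-dopaminergic nuclei (309 and 211), with overlap in both. In food-trained dopaminergic nuclei (668 and 263) it led without overlap. At maintenance Gabrb2 still led (531 and 420), now overlapping. Gabra4 (41.0) then stood just above Gabra3 (39.1) in non-dopaminergic nuclei, and Gabra2 was last in each group.

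**Figure D1:**
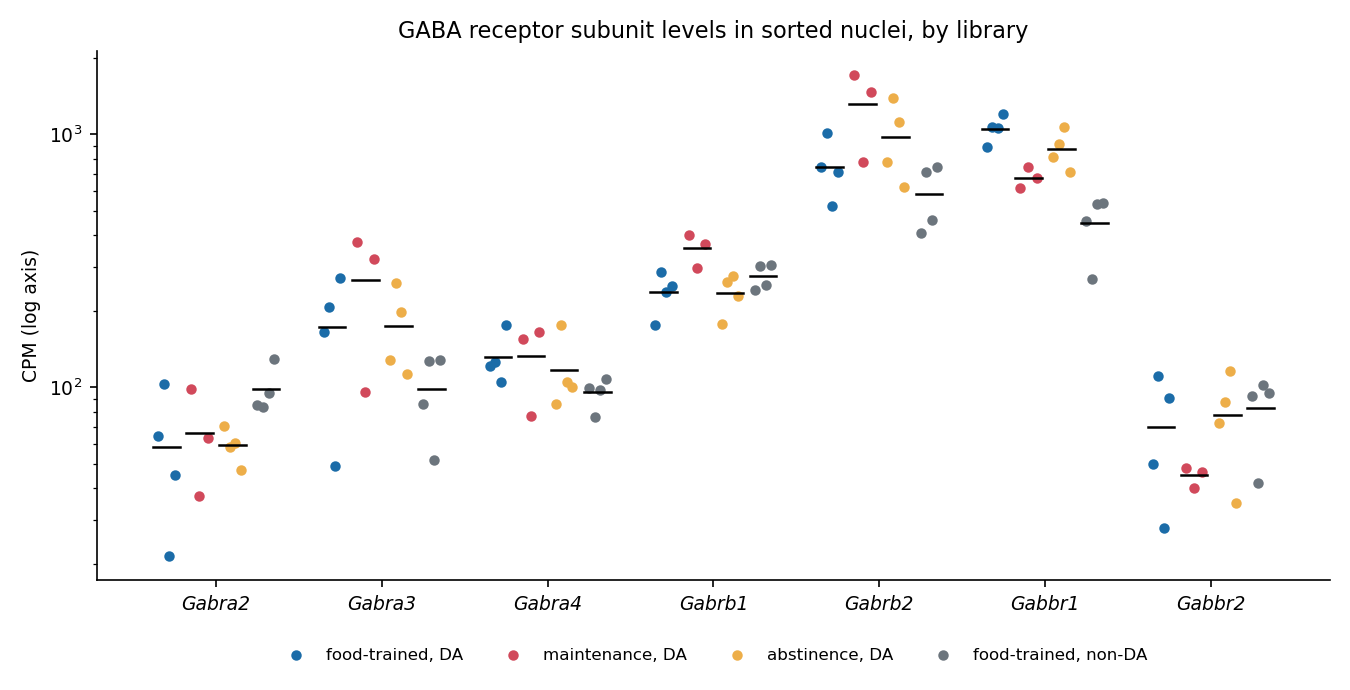
Level of each subunit in each library, in CPM on a log axis, with 1 point per library and a black line at the group mean. The 4 food-trained dopaminergic libraries hold Gabbr1 at 889 to 1203 CPM, above the 269 to 534 CPM of the 4 non-dopaminergic libraries, while the groups overlap for the other 6 genes.

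The comparison of dopaminergic with non-dopaminergic nuclei of food-trained mice asked which subunits mark the dopamine neurons. Gabbr1, the GABA-binding subunit of the GABA-B receptor, was 2.38-fold higher in dopaminergic nuclei and was the only 1 of the 7 to pass the test. Its partner Gabbr2 and the 5 GABA-A subunits did not pass. Over all 19786 genes tested, 12.8% passed (3.63% higher and 9.17% lower in dopaminergic nuclei) and, in the fit that blocks on the library number, 3.92% (2.09% higher); Gabbr1 alone of the 7 passed in both fits. Nothing about the 7 genes as a group is read from a count of 1. The median log2 fold change was 0.38 over the 7 genes and -0.21 over all genes.

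Gabbr1 measured 889, 1072, 1059 and 1203 CPM in the 4 food-trained dopaminergic libraries and 457, 269, 530 and 534 CPM in the non-dopaminergic libraries of the same numbers. The groups did not overlap, which held in this direction for 6.41% of all genes. The means were 1056 ± 129 and 448 ± 124 CPM (SD, n = 4 each). The log2 fold change was 1.25 (SE 0.25, adjusted p = 0.00986, edgeR quasi-likelihood test). With the library number as a block, it was 1.29 (adjusted p = 0.0301). Non-dopaminergic replicate 2, the library with the low GC slope, was the lowest for Gabbr1; without it, the log2 fold change was 1.07 (adjusted p = 0.0189). The call ended in 1 of 19 alternative fits, that with the block and the GC slope together (1.53, adjusted p = 0.0553).

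Gabbr2 measured 50.0, 111, 27.8 and 91.2 CPM in dopaminergic and 92.6, 42.1, 102 and 95.5 CPM in non-dopaminergic libraries. The groups overlapped, and the log2 fold change was -0.24 (SE 0.44, adjusted p = 0.817). Whether the difference in Gabbr1 exceeded that in Gabbr2 was read from their ratio within each library, which no scaling of libraries can change. The ratio of CPM per kb was 19.5, 10.6, 41.7 and 14.5 in dopaminergic libraries (mean 21.6 ± 13.9, SD, n = 4) and 5.41, 7.01, 5.69 and 6.13 in non-dopaminergic libraries (6.06 ± 0.701, n = 4). The size of the ratio depends on the transcript lengths: with the median coding transcript of each gene the means were 38.9 and 10.9. With the longest transcripts the ratios did not overlap (exact two-sided permutation p = 0.0286, the smallest that 4 against 4 allow; 0.257 after adjustment over 18 share tests). That test exchanges libraries freely. Within the 4 same-numbered pairs of food-trained libraries the ratio was higher in dopaminergic nuclei in 4 of 4, and the exact two-sided permutation p, with signs flipped within pairs, was 0.125, the smallest that 4 pairs allow, which does not pass. The highest ratio came from food-trained replicate 3, which had the lowest Gabbr2 and the fewest total counts.

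Of the alpha subunits, Gabra3 had a mean of 173 ± 93.3 CPM in dopaminergic nuclei and of 98.3 ± 36.7 CPM in the others (n = 4 each). Its 4 dopaminergic libraries held 165, 208, 49.1 and 270 CPM, so that 3 stood above all of the non-dopaminergic libraries (51.9 to 128 CPM) and replicate 3 below them all. The log2 fold change was 0.82 (SE 0.48, adjusted p = 0.354, edgeR). Gabra4, an alpha subunit often found with delta outside synapses, had 132 ± 30.8 against 95.5 ± 13.3 CPM (log2 fold change 0.48, SE 0.21, adjusted p = 0.193, edgeR). Gabra2, the alpha subunit known for anxiolytic benzodiazepine action, went the other way at 58.3 ± 34.3 against 98.5 ± 21.4 CPM (log2 fold change -0.75, SE 0.42, adjusted p = 0.326, edgeR). None of the 3 passed, and their dopaminergic libraries ranged more widely than the non-dopaminergic ones.

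The beta subunits, which hold part of the GABA binding site, did not pass either. Gabrb2 had 747 ± 203 CPM in dopaminergic nuclei and 580 ± 170 CPM in the others (log2 fold change 0.38, SE 0.28, adjusted p = 0.491, edgeR). Gabrb1 had 238 ± 45.1 and 276 ± 31.8 CPM (log2 fold change -0.20, SE 0.19, adjusted p = 0.608, edgeR). The libraries of both genes overlapped between the populations.

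Within the GABA-A members, Gabrb2 made up most of the summed CPM per kb in each library. Its share was 64.1% ± 5.85 in food-trained dopaminergic, 70.5% ± 2.02 in maintenance, 69.9% ± 2.69 in abstinence and 61.9% ± 4.43 in non-dopaminergic libraries (SD, n = 4, 3, 4 and 4). Gabra2 had the smallest share in dopaminergic nuclei of food-trained mice, 3.85%, 4.61%, 1.94% and 2.39%, against 8.01%, 5.35%, 8.66% and 7.60% in non-dopaminergic nuclei. The groups did not overlap (means 3.20% and 7.41%; exact two-sided permutation p = 0.0286, the smallest possible, and 0.257 after adjustment over the 18 share tests). The share was lower in dopaminergic nuclei in 4 of 4 same-numbered pairs, where the exact permutation within pairs again gave 0.125 and did not pass. Adjusted in that way, no share in the 3 comparisons tested passed. At maintenance, 3 against 4 libraries cannot give an exact permutation p under 0.0571. Those share tests could not pass and so decide nothing. The shares leave out all other subunits, and so describe the 5 genes alone.

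**Figure D2:**
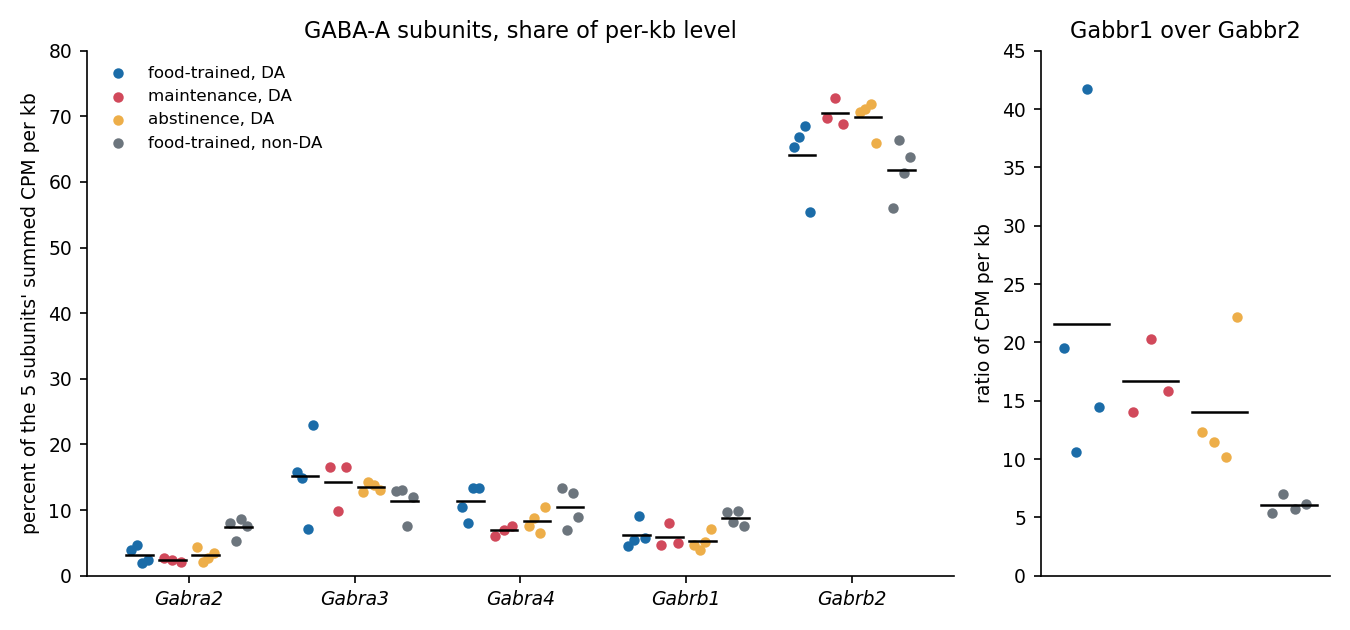
Share of each of the 5 GABA-A subunits in their summed CPM per kb, in percent (left axis), and the ratio of Gabbr1 to Gabbr2 CPM per kb (right panel), with 1 point per library and a line at the group mean. The Gabra2 share is 1.94% to 4.61% in food-trained dopaminergic and 5.35% to 8.66% in non-dopaminergic libraries, and the Gabbr1 to Gabbr2 ratio is 10.6 to 41.7 against 5.41 to 7.01.

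The summed oligodendrocyte markers were 1760 to 2806 CPM in food-trained dopaminergic and 9847 to 23351 CPM in non-dopaminergic libraries, astrocyte markers (8 genes) 1682 to 2142 and 2110 to 4330 CPM, and microglial markers (8 genes) 559 to 1087 and 1931 to 4219 CPM. No marker of these 3 lists was at 0 in every library of either group. Of these lists, 7 of 10, 3 of 8 and 6 of 8 genes passed as lower in dopaminergic nuclei. Markers of GABA neurons (7 genes) overlapped between the sorts, at 439 to 1154 and 751 to 1534 CPM. What the mix of cells contributes to the subunit differences was not tested, and in sorted bulk nuclei fewer cells of a type and less RNA per cell cannot be told apart.

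Other genes of GABA signalling were counted by list. Each count is to be read against the 3.63% of all genes that passed as higher and the 9.17% that passed as lower. Of the 14 other GABA-A subunits, 10 could be tested, and 1 passed, as lower. Gabrr2, a rho subunit best known from the retina, had 0 counts in all 4 food-trained dopaminergic libraries and 571 to 918 counts (15.3 ± 2.79 CPM) in the 4 non-dopaminergic ones. It was at least 141-fold lower in dopaminergic nuclei, taking a floor of 3 counts per library (adjusted p = 0.00439, edgeR; 0.0564 with the block, which ends the call). Gabrq, encoding theta, had 66.3 ± 50.2 against 24.6 ± 8.50 CPM (adjusted p = 0.141, edgeR), and Gabrd, encoding delta, 5.10 ± 3.70 against 25.3 ± 11 CPM (adjusted p = 0.272, edgeR). Values of further subunits that did not pass were, in dopaminergic and non-dopaminergic nuclei, Gabra5 (23.8 ± 6.59 and 51.9 ± 31.4 CPM), Gabrg1 (76.8 ± 33.5 and 82.5 ± 27.8), Gabrg3 (39.8 ± 16.8 and 38.8 ± 1.45) and Gabre (3.68 ± 5.00 and 5.85 ± 3.08). Gabra6 was 0 in all food-trained and maintenance dopaminergic libraries and 7.93, 1.21, 2.31 and 0 CPM at abstinence, so that its level there came mostly from replicate 1. Gabrr1 was 0 in the food-trained dopaminergic libraries, 0, 0 and 8.29 CPM at maintenance and 0, 0, 2.34 and 2.01 CPM at abstinence, so that its level at maintenance came from replicate 3 alone.

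Of 14 genes for GABA-A scaffolding, assembly and trafficking, 0 passed as higher and 1 as lower. With the block this became 1 higher and 0 lower: Clptm1, whose protein holds GABA-A subunits inside the cell, had 788 ± 300 against 378 ± 106 CPM (log2 fold change 1.07, adjusted p = 0.0732 without the block; 1.02 and 0.0418 with it, edgeR). The lower gene without the block was Iqsec3, an exchange factor that binds the scaffold protein gephyrin, whose 31.3 ± 11.4 CPM in dopaminergic nuclei compare with 87.3 ± 30.8 CPM in the others (log2 fold change -1.47, SE 0.37, adjusted p = 0.0314, edgeR). The call was lost with the block (0.0744), with the GC slope (0.0900) and without each of 4 libraries in turn, which were dopaminergic replicate 2 (0.0614) and non-dopaminergic replicates 1 (0.0894), 3 (0.103) and 4 (0.0740). Of 9 GABA-B auxiliary subunits and effector channels, 1 passed as higher: Ajap1, whose protein binds the extracellular part of GABBR1, at 68.4 ± 23.1 against 28.9 ± 6.65 CPM (log2 fold change 1.26, SE 0.29, adjusted p = 0.0201, edgeR). Its adjusted p was 0.0544 with the block, and 0.0635 and 0.0659 without non-dopaminergic replicates 1 and 4. The 4 GIRK channel genes did not pass and differed in sign: Kcnj6 had 65.9 ± 20.6 and 50.6 ± 14.1 CPM (adjusted p = 0.516, edgeR), Kcnj5 9.51 ± 10.7 and 5.30 ± 1.61 (0.789), Kcnj3 34.1 ± 13.8 and 52.9 ± 14.4 (0.302) and Kcnj9 20.2 ± 13.7 and 92.3 ± 26.9 (0.278).

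Of 9 genes for GABA supply and chloride transport, 2 passed, both lower in dopaminergic nuclei. Slc12a2, the chloride importer NKCC1, had 65.5 ± 29.3 against 288 ± 104 CPM (log2 fold change -2.13, SE 0.36, adjusted p = 0.0067, edgeR; 0.00614 with the block). Slc6a11, the GABA transporter GAT3 typical of astrocytes, had 72.2 ± 31.5 against 225 ± 41.7 CPM (log2 fold change -1.63, SE 0.35, adjusted p = 0.0135, edgeR; 0.0392 with the block, and 0.10 with the block and the GC slope together, which ends the call). Slc12a5, the chloride exporter KCC2, had 658 ± 213 and 522 ± 228 CPM (adjusted p = 0.668, edgeR). Slc12a2 and Slc6a11 are also expressed by glia, whose markers differed in the same direction, and the part of glial RNA in these calls was not tested.

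The stage comparisons asked whether subunit RNA in dopaminergic nuclei changed with cocaine self-administration and with abstinence. None of the 7 genes passed the edgeR test in any of the 3 comparisons between stages. After maintenance, against food training, 0 of 7 passed where 0.131% of 19060 genes did (25 genes), and 3 had an unadjusted p under 0.05 (11.6% of all genes did). These 3 were Gabbr1, which had lower values at maintenance, and Gabrb1 and Gabrb2, which had higher values.

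Gabbr1 measured 612, 742 and 671 CPM at maintenance, below all 4 food-trained libraries (889 to 1203 CPM); 4.14% of all genes were lower without overlap. The means were 675 ± 65.1 (n = 3) and 1056 ± 129 CPM (n = 4). The log2 fold change was -0.65 (SE 0.23, adjusted p = 0.364, edgeR). DESeq2 called it (-0.66, adjusted p = 0.00873), and was the only 1 of the alternatives to do so. Gabbr2 had 48.1, 40.1 and 46.5 CPM at maintenance, within the food-trained range, and the same log2 fold change of -0.65 with a wider error (SE 0.46, adjusted p = 0.692).

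Gabrb1 measured 400, 296 and 370 CPM at maintenance, above the food-trained 177, 285, 238 and 252 CPM; 4.31% of all genes were higher without overlap. Its log2 fold change was 0.57 (SE 0.24, adjusted p = 0.400, edgeR). Gabrb2 measured 1721, 779 and 1468 CPM at maintenance and 742, 1014, 521 and 711 CPM after food training. Maintenance replicates 1 and 3 were above every food-trained library, while replicate 2 was within their range. The log2 fold change was 0.81 (SE 0.34, adjusted p = 0.400, edgeR).

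Of the 3 alpha members, only Gabra3 likewise had replicates 1 and 3 above every food-trained library and replicate 2 within their range. It measured 376 and 322 CPM in replicates 1 and 3 and 96.4 CPM in replicate 2 (log2 fold change from food training 0.61, SE 0.52, adjusted p = 0.791). Gabra4 had 155 and 166 CPM, within the food-trained range of 105 to 176, and 77.3 CPM in replicate 2, below it (0.00, SE 0.32, adjusted p = 1.0). Gabra2 had 98.6, 37.2 and 63.0 CPM in replicates 1 to 3, all within the food-trained range of 21.6 to 103 (0.17, SE 0.45, adjusted p = 0.977). Replicate 2 was thus the lowest of the maintenance libraries for all 5 GABA-A members and the highest for Gabbr1. It also had the least steep of the 3 GC slopes and the fewest counts of the 3.

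The direction of the maintenance values went with GC content. Over tested genes with a mean log2 CPM over 4 and a GC content of 40% to 44% (1395 genes), the median log2 fold change from food training to maintenance was 0.15; for 52% to 56% GC (1510 genes) it was -0.12, for 56% to 60% (945 genes) -0.40, and for 60% to 64% (243 genes) -0.74. The 2 GC-rich members were both below 0, and of the 5 GC-poor members 4 were above 0, with Gabra4 at 0.00. With the GC slope of each library as a covariate, the log2 fold change was -0.43 for Gabbr1 (adjusted p = 0.821), 0.39 for Gabrb1 (0.869) and 0.61 for Gabrb2 (0.857). With all 15 libraries and a term for the 4 libraries of low slope, Gabbr1 turned to 0.24 and Gabbr2 to 0.53 (adjusted p = 1.0 for both), a term that only non-dopaminergic replicate 2 separates from the stage. All 3 maintenance libraries had a low slope, so in these nuclei the stage and the GC-dependent difference cannot be told apart.

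**Figure D3:**
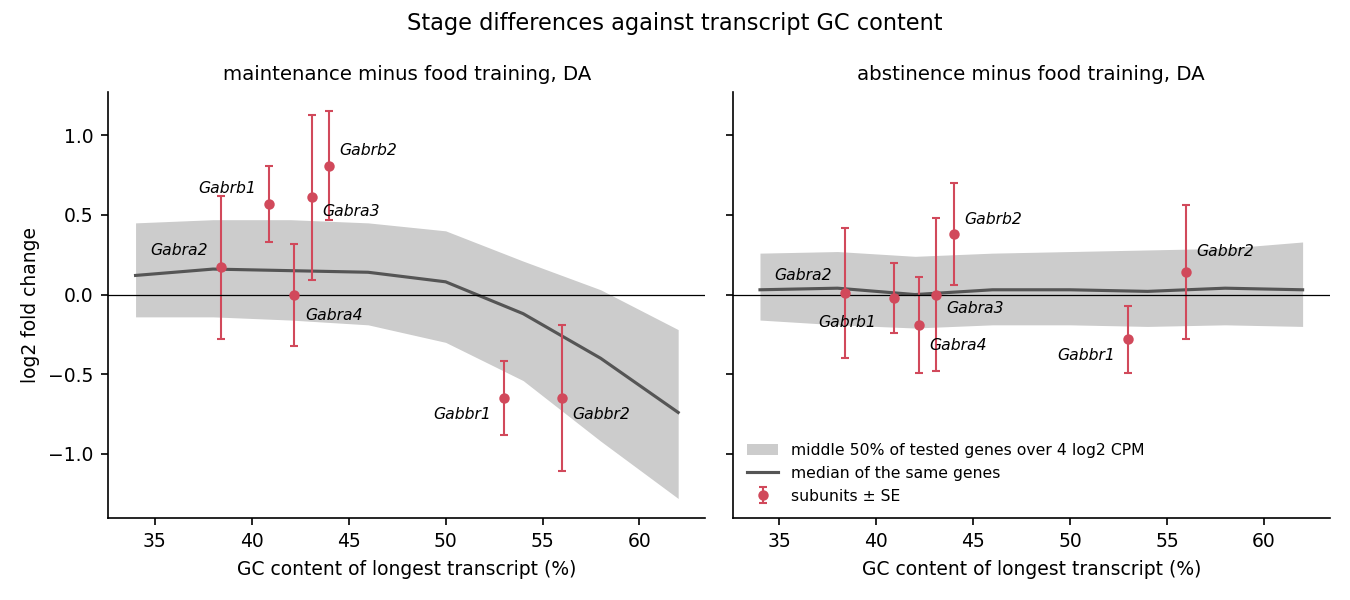
Log2 fold change of each subunit (red points, ± SE) against the GC content of its longest transcript in percent, for maintenance (left) and abstinence (right) minus food training; the grey line and band are the median and the middle 50% of tested genes with a mean log2 CPM over 4, in steps of 4% GC, steps with under 20 genes left out. At maintenance the median falls from 0.15 at 40% to 44% GC to -0.74 at 60% to 64%, while at abstinence the medians are 0.00 and 0.03.

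After 21 days of abstinence, 0 of 7 genes differed from food training, as did 0.0% of all genes by edgeR, and 0 of 7 had an unadjusted p under 0.05, against 4.3% of all genes. DESeq2 called 140 genes, with 0 of the 7 among them. The groups overlapped for each of the 7, where 3.34% of all genes did not. Gabbr1 had 813, 919, 1075 and 708 CPM at abstinence (879 ± 157), a log2 fold change of -0.28 from food training (SE 0.21, adjusted p = 1.0, edgeR). Gabrb2 had 780, 1398, 1121 and 618 CPM (980 ± 349; log2 fold change 0.38, SE 0.32, adjusted p = 1.0, edgeR).

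Mean levels of the other members at abstinence lay near those after food training. Gabra2 had 59.0 ± 9.47 and 58.3 ± 34.3 CPM, Gabra3 174 ± 67.1 and 173 ± 93.3 CPM, and Gabrb1 237 ± 43.0 and 238 ± 45.1 CPM. Gabra4 had 117 ± 40.8 and 132 ± 30.8 CPM, and Gabbr2 77.6 ± 33.7 and 70.0 ± 37.8 CPM. Their log2 fold changes lay between -0.19 and 0.14. Their standard errors ran from 0.22 for Gabrb1 to 0.48 for Gabra3, and values that did not pass are not shown to be equal.

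Between maintenance and abstinence, 0 of 7 passed by edgeR or DESeq2, where 0.178% of all genes did by edgeR, and 1 of 7 had an unadjusted p under 0.05, against 9.92% of all genes. Gabrb1 was lower at abstinence (179, 262, 276 and 230 CPM) than in any maintenance library (296 to 400 CPM), as were 4.52% of all genes without overlap, with a log2 fold change of -0.59 (SE 0.24, adjusted p = 0.473, edgeR). Gabbr1 had 0.37 (SE 0.23, adjusted p = 0.686), Gabbr2 0.78 (SE 0.46, adjusted p = 0.644), Gabra3 -0.61 (SE 0.52, adjusted p = 0.888) and Gabrb2 -0.44 (SE 0.34, adjusted p = 0.847). This comparison and that of maintenance with food training share the maintenance libraries, and abstinence and maintenance share the food-trained ones, so opposite or like signs across them are not separate observations. In the test of any difference among the 3 stages 0 of 7 passed (0.0839% of all genes did), and 2 of 7 had an unadjusted p under 0.05 (7.85% of all genes). The lowest adjusted p values were 0.627 for Gabbr1 and 0.632 for Gabrb1 (edgeR).

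**Figure D4:**
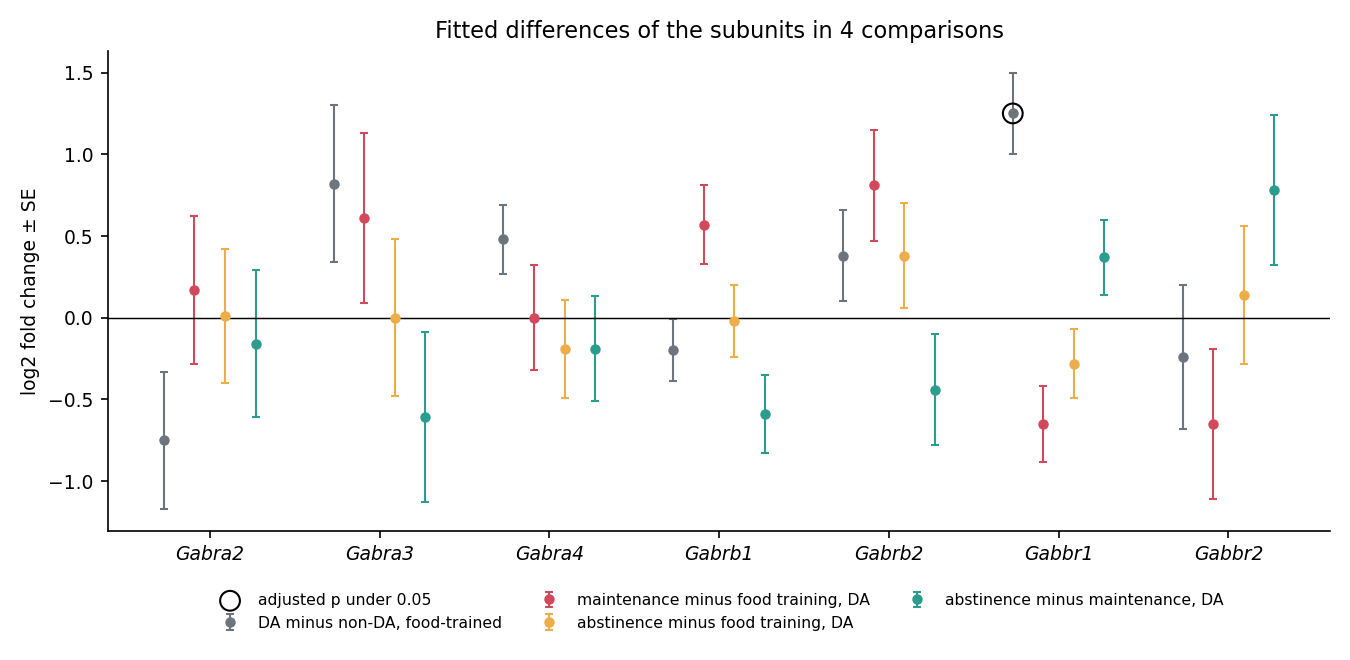
Fitted log2 fold change (± SE) of each subunit in the 4 comparisons, with a ring around values whose adjusted p is under 0.05. The ring is on Gabbr1 in dopaminergic minus non-dopaminergic nuclei (1.25), and the maintenance values run from -0.65 for both GABA-B subunits to 0.81 for Gabrb2.

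None of the tested genes of the 4 other GABA lists passed in a stage comparison (edgeR), against the 0.131%, 0.0% and 0.178% of all genes given above. At maintenance 11.6% of all genes had an unadjusted p under 0.05 (edgeR). So did 3 of 11 tested other subunits and 4 of 14 scaffold and trafficking genes. The counts were 2 of 9 for GABA-B partners and 7 of 9 for GABA supply and chloride transport. The last list had no common direction, with 4 log2 fold changes above 0 and 5 below. Its median was -0.53 against -0.01 over all genes. Here too the stage and the GC-dependent difference cannot be told apart. At abstinence, against food training, where 4.3% of all genes had such a p, the counts were 2, 0, 0 and 1. Gabrd, at 5.34, 8.80, 0 and 6.26 CPM in the food-trained libraries, had 0 counts in all 3 maintenance libraries, each of which allows up to 3 counts, and was again 0 in 1 of the 4 abstinence libraries.

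Across the 11 dopaminergic libraries the 10 pairs of GABA-A members correlated to different degrees, given here as a description with no test, since the libraries share depth and GC effects. The Pearson correlation of log2 CPM was 0.83 for Gabra3 with Gabrb2, 0.76 for Gabra3 with Gabra4, 0.75 for Gabra2 with Gabra3 and 0.70 for Gabrb1 with Gabrb2. It was 0.69 for Gabra2 with Gabrb2, 0.56 for Gabra4 with Gabrb2, 0.51 for Gabra3 with Gabrb1, 0.42 for Gabra4 with Gabrb1, 0.31 for Gabra2 with Gabra4 and 0.24 for Gabra2 with Gabrb1. Gabbr1 had correlations of -0.39 to 0.09 with the 5 GABA-A members and 0.53 with Gabbr2.

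The genes whose pattern was most like each member, over the same 11 libraries and among 9896 genes with a mean of at least 10 CPM, were Degs1 (0.980) and Cd164 (0.977) for Gabra3, Enpp2 (0.978) and Car10 (0.964) for Gabrb2, and Elovl5 (0.950) and Calu (0.934) for Gabra4. For Gabbr1 they were Elfn2 (0.944) and Nrxn2 (0.941), for Gabra2 Sep15 (0.930) and Tspan12 (0.914), for Gabbr2 Mlec (0.912) and Ggcx (0.911), and for Gabrb1 Lrrfip1 (0.903) and Tango2 (0.900). Each value is the highest of many and so overstates the likeness.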

How the data were processed

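RNA of sorted nuclei was sequenced from 15 samples in 4 groups, read from the sample titles. The authors deposited whole-number counts per gene for 35976 gene symbols; a second deposited table repeated these counts (0 cells differed in 10 columns) and was read for that check alone. The submitters' processing notes name Trim Galore 0.6.7, cutadapt 1.18, STAR 2.7.10a, StringTie 2.1.5, DESeq2 1.38.3 and the build mm10 (GRCm38), without roles; the annotation and the strand setting are not given in the sources used here. Reads carried no stated molecular identifiers, so depth (25813697 to 59046618 counts) limits counting error only.

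The software was R 4.3.3 (edgeR 4.0.16; DESeq2 1.42.0; limma 3.58.1) and Python 3.11.15 (SciPy 1.17.1). Genes were kept by filterByExpr, scaled by TMM and tested with the two-sided edgeR quasi-likelihood test at a Benjamini-Hochberg adjusted p under 0.05 over all genes tested. The 2 populations were compared in the 8 food-trained libraries, and stages in a fit of all 11 dopaminergic libraries. Standard errors were derived from the fold change and the test's F value. CPM used the TMM factors of all 15 libraries, and correlations used a prior count of 2. Length and GC content came from the longest GENCODE M21 transcript, matched for 26763 symbols directly and 10 by a synonym. Shares were compared by exact permutation over libraries and, between populations, also by sign flips within same-numbered pairs. The population and maintenance comparisons were also checked on simulated counts, where many genes given a large change were not called, so a gene that did not pass is not shown to be unchanged.

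All 7 members are named in each comparison. Other genes come from the lists given in the text: genes past the threshold, GABA-A subunits with a mean of at least 1 CPM (the values of some are not reported here), and the 2 genes most like each member; Clptm1, the 4 GIRK genes and Slc12a5, list members that did not pass without the block, were added after their values were seen. The members and lists were chosen with earlier results of these data known.

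Library numbers pair the food-trained populations: after removing group means, same-numbered libraries correlated at 0.116 to 0.262 (4 of 4 pairs over 0.1), against -0.184 to 0.146 for the other 12 pairs. Alternatives covered scaling, filters, DESeq2, limma-voom, the library number, GC terms and leaving out each library.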

Additional observations from a re-analysis of the deposited data

Results flagged for a closer look

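In the non-dopaminergic group, Gabbr2 in replicate 2 lay apart from the other libraries, at 42.1 CPM against 92.6 to 102 CPM in the other 3. The gap was 0.842 of the group's range. This library also had the low GC slope (-0.0247 per percent) and the lowest Gabbr1 of its group (269 CPM), and the part of GC content in the low value was not tested. It was the only such value among 39 sets of libraries examined, of which chance alone flags about 5%.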

How the results depend on the processing

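The number of genes passing between populations was 2534 and became 1643 with at least 10 counts in every library, 3883 with DESeq2, 4266 with limma-voom, 775 with the replicate block and 159 with the block and the GC slope together, which was chosen after seeing the data; leaving out 1 library gave 1900 to 3740. The split was 719 higher and 1815 lower, against 916 and 727 with at least 10 counts in every library, 413 and 362 with the block, and 73 and 86 with the block and the GC slope. From food training to maintenance 25 genes passed, against 109 with at least 10 counts, 977 with DESeq2, 9 with limma-voom, 0 with the block, 1 with the GC slope and 0 with the term for low GC slope; leaving out 1 library moved the count by over 1.5 times in 8 of 11 cases, from 5 without maintenance replicate 1 to 78 without maintenance replicate 2. From food training to abstinence 0 passed, and 140 with DESeq2; each library left out gave 0. From maintenance to abstinence 34 passed, against 22 with upper quartile factors, 69 with at least 10 counts, 793 with DESeq2, 15 with all 15 libraries, 2 with the block, 1 with the GC slope and 1 with the term, and 6 to 73 without 1 library (6 without maintenance replicate 1 or abstinence replicate 3, 73 without maintenance replicate 2). For any stage 16 passed, against 41 with at least 10 counts, 340 with DESeq2, 9 with all 15 libraries and 0 with the block, the GC slope or the term, and 1 to 23 without 1 library. In these stage fits the library numbers paired nothing: 1 of 10 same-numbered pairs correlated over 0.1 (-0.351 to 0.11). Of the 7 members, the number called went from 1 to 0 between populations (block with GC slope) and from 0 to 1 at maintenance (Gabbr1, DESeq2); the block on its own changed no member's call.

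Directions turned as follows, each for a value that did not pass, and the cause was not tested. Between populations Gabbr2 turned to 0.48 with the block and the GC slope. At maintenance Gabra2 turned to -0.54 with the GC slope, and Gabbr1 to 0.24 and Gabbr2 to 0.53 with the term. From food training to abstinence Gabra2 turned to -0.03 (DESeq2 size factors and DESeq2), -0.01 (upper quartile) and -0.02 (at least 10 counts), and Gabrb1 to 0.05 (limma-voom) and 0.01 (GC slope). From maintenance to abstinence Gabra2 turned to 0.64 with the GC slope, and Gabbr1 to -0.52 and Gabbr2 to -0.40 with the term. With 1 library left out, log2 fold changes crossed 0 for Gabbr2 between populations (-0.55 to 0.05, above 0 without dopaminergic replicate 3), for Gabra2 (-0.22 to 0.57) and Gabra4 (-0.19 to 0.24) at maintenance, for Gabbr2 (-0.13 to 0.45), Gabra2 (-0.27 to 0.43), Gabra3 (-0.31 to 0.29) and Gabrb1 (-0.14 to 0.09) at abstinence, and for Gabra2 (-0.42 to 0.23) and Gabra4 (-0.44 to 0.01) from maintenance to abstinence. Differences in shares crossed 0 for the Gabbr1 to Gabbr2 ratio (-8.54 to 1.82), Gabra3 (-3.61 to 1.72) and Gabrb1 (-1.32 to 0.697) at maintenance, for Gabra2 (-0.509 to 0.383) and Gabra3 (-4.43 to 0.889) at abstinence, and for Gabra4 between populations (-0.339 to 1.9). The population differences in the Gabra2 share (-4.89 to -3.79) and in the ratio (8.79 to 19.1) kept their direction without each library, where 3 against 4 cannot give a p under 0.0571. Sign flips within the same-numbered pairs, a replicate block chosen after seeing the data, left these differences at -4.21 and 15.5. The flips took the exact permutation p of both from 0.0286 to 0.125, the smallest that 4 pairs allow. The other 4 shares did not pass without this pairing, and with it could not. The levels stayed within 1 SD under DESeq2 size factors and with no scaling in 56 of 56 values. With the median coding transcript length the 18 share comparisons kept their direction and side of the threshold. Those at maintenance could not pass with either length. With the median coding length the mean Gabbr1 to Gabbr2 ratio went from 21.6 to 38.9 in food-trained dopaminergic and from 6.06 to 10.9 in non-dopaminergic libraries.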
